A study of Mus musculus with 12 samples.

Results

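The 10 genes Trdc, Trgc1, Trgv2, Trac, Cd8a, Cd8b1, Cd4, Cd5, Cd6 and Itgae are T cell markers, listed here for the T cells that live inside the intestinal epithelium. Not all of them are particular to those cells. They were looked up by gene identifier among the 39086 genes of the read count table. Of the 10, 9 were found and are described here, and Trdc, the constant gene of the delta chain, was not analysed here. The gamma-delta group held Trgc1 and Trgv2, the alpha-beta group held Trac, Cd8b1, Cd4, Cd5 and Cd6, and the shared group held Cd8a and Itgae. The members were not chosen by a threshold on these libraries, but they were proposed with earlier results of the same data known.

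RNA was sequenced from villus cells of the jejunum, the middle part of the small intestine, sorted by flow cytometry for a yellow fluorescent protein into enteroendocrine cells (EEC, positive) and all other cells (non-EEC, negative). All mice were male, on the C57BL/6N background, of genotype Neurog3eYFP/+ and 12 weeks old. Neurog3 is the transcription factor that starts the endocrine fate, and the reporter sits in 1 of its 2 alleles in the EEC and the non-EEC mice alike. The ND groups stayed on the normal diet (Safe D04), and the HFD groups received the high fat diet D12492 for 4 weeks from 8 weeks of age. Each of the 4 groups, ND EEC, HFD EEC, ND non-EEC and HFD non-EEC, had 3 libraries, and 3 mice were given per diet. Whether an EEC and a non-EEC library with the same number share a mouse is not stated. The labels name no T cell marker in the sort, so T cells released with the epithelium would enter the negative gate.

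Intraepithelial T cells sit between the enterocytes of the villus and are among the most abundant lymphocytes of the body. Many carry a receptor of gamma and delta chains rather than alpha and beta chains, and many of both kinds carry CD8 as a pair of alpha chains, while conventional cytotoxic T cells carry an alpha and a beta chain. CD4, CD5 and CD6 belong to conventional alpha-beta T cells, with CD5 and CD6 low or absent on the unconventional cells of the gut. CD103, the product of Itgae, binds E-cadherin on epithelial cells and holds the lymphocytes in place. Gamma chain genes can also be transcribed in alpha-beta T cells, so no single RNA assigns a cell to 1 of the 2 lineages.

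The gamma constant genes are close copies of each other, which bears on what a Trgc1 count is. The first 120 coding bases of the 4 genes are shown in the orientation of transcription, from the GENCODE vM21 annotation of GRCm38, the assembly that mm10 stands for. Capitals mark bases that differ from Trgc1.
Trgc1: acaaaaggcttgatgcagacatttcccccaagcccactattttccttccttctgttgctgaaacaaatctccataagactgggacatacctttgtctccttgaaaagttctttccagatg
Trgc2: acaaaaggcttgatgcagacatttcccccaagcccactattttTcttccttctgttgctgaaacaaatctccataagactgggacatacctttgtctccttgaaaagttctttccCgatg
Trgc3: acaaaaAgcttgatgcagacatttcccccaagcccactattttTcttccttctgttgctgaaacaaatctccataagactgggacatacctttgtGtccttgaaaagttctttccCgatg
Trgc4: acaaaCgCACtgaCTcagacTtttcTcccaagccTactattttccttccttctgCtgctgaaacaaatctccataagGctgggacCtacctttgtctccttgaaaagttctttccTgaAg
The stretches lie on chromosome 13, at chr13:19214103-19214222 on the plus strand for Trgc1, chr13:19307432-19307551 on the minus strand for Trgc2, chr13:19260885-19261004 on the plus strand for Trgc3 and chr13:19344558-19344677 on the plus strand for Trgc4. Over the whole first coding exon of 330 bases, identity to Trgc1 was 97.3% for Trgc2, 96.1% for Trgc3 and 82.1% for Trgc4. Of all stretches of 50 bases in the transcript, 18.2% of those of Trgc2 and 25.7% of those of Trgc3 occurred unchanged in Trgc1, against 0.0% of those of Trgc4. Counts of Trgc1, Trgc2 and Trgc3 are therefore uncertain where reads fell in shared sequence, and how the counting treated such reads is not stated.

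Trgv2, a variable segment of the gamma chain, has a near copy in Trgv1. The first 120 bases of the variable exon of each are shown, with capitals at the bases of Trgv1 that differ from Trgv2.
Trgv2: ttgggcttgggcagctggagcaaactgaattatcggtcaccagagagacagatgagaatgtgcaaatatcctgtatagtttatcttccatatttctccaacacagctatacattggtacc
Trgv1: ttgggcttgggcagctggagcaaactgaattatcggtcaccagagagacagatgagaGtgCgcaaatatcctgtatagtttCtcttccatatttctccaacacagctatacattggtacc
They lie at chr13:19336760-19336879 on the minus strand and chr13:19340151-19340270 on the plus strand, and the 2 exons were 95.1% identical. Of the stretches of 50 bases in Trgv1, 9.5% were also in Trgv2.

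Total counts ran from 9543183 to 29054281 per library, the deepest being ND EEC replicate 3. Enteroendocrine genes followed the labels: 9 of 9, among them Insm1, Neurod1, Tac1 and Neurog3, were called higher in EEC over both diets, against 13.8% of all genes. The non-EEC libraries of the 2 diets differed in their make-up. A list of 9 enterocyte genes summed to between 2682 and 14160 CPM (counts scaled to library size with TMM factors) in ND non-EEC and to between 29730 and 67680 CPM in HFD non-EEC. In ND non-EEC replicate 1 the enterocyte, enteroendocrine and goblet cell lists were at the top of their group's range. In these bulk libraries fewer T cells and less RNA per T cell cannot be told apart.

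The T cell markers were highest in ND non-EEC and lowest in HFD EEC, with ND EEC and HFD non-EEC between them, except that the mean of Cd4 was lower in HFD non-EEC than in HFD EEC. All 9 were lower under HFD than under ND in non-EEC, by 25.9-fold to 78.6-fold, in a comparison that called 9.15% of all genes lower, and the 3 classes had medians close to each other. In EEC the 9 differences between diets were all negative, and none passed the test, as 0% of all genes did. Over both diets all 9 had lower fitted values in EEC than in non-EEC, and 8 were called lower, where 7.8% of all genes were called lower. Each of these comparisons used edgeR's quasi-likelihood test on all 12 libraries with Benjamini-Hochberg adjustment over 17087 genes, and a gene is called at an adjusted p below 0.05.

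**Figure D1:**
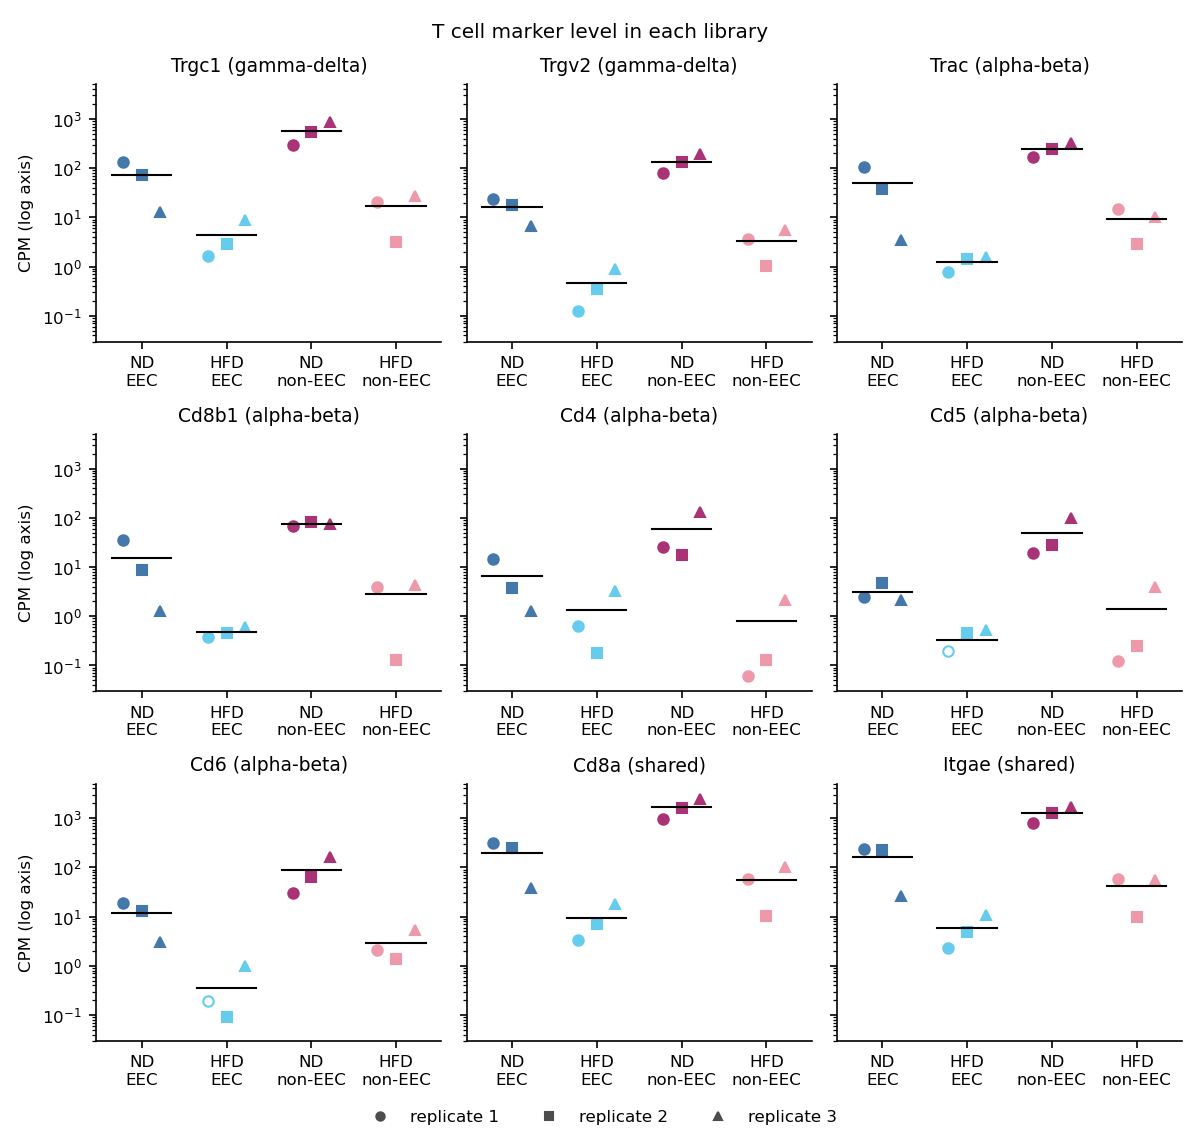
Level of each of the 9 T cell markers in CPM on a log axis, in 3 libraries of each of 4 groups; black lines are group means, and open symbols are libraries with 0 counts drawn at the floor of 3 counts. The ND non-EEC libraries stand at the top of every panel, and for Cd8a they lie between 973 and 2484 CPM.

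Trgc1 (ENSMUSG00000076749, chr13:19214103-19217024) encodes a constant region of the gamma chain and was the higher of the gamma-delta pair. Its level was 301, 536 and 855 CPM in the 3 ND non-EEC libraries and 20.6, 3.17 and 27.2 CPM in the HFD non-EEC libraries. In EEC it was 132, 73.5 and 13.2 CPM under ND and 1.67, 2.87 and 8.94 CPM under HFD. The diet groups did not overlap in either population, with the lowest ND EEC library, replicate 3, close to the highest HFD EEC library, also numbered 3. In non-EEC Trgc1 fell under HFD, by a fitted log2 value of -5.05 with an SE of 0.98 (adjusted p = 0.00624).

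Trgv2 (ENSMUSG00000076754, chr13:19336573-19337167) was read at 78.6, 136 and 191 CPM in ND non-EEC and at 3.62, 1.01 and 5.46 CPM in HFD non-EEC. In EEC it was at 23.4, 18.1 and 6.84 CPM under ND and at 0.128, 0.358 and 0.901 CPM under HFD, which rest on 2, 4 and 12 counts. It gave the smallest adjusted p of the 9 for diet in non-EEC, 0.00201, at a log2 fold change of -5.31 ± 0.74. Trgv2 was also lower in EEC than in non-EEC under each diet, at log2 fold changes of -3.07 ± 0.66 under ND (adjusted p = 0.0105) and -2.86 ± 0.75 under HFD (adjusted p = 0.0232).

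Trac (ENSMUSG00000076928, chr14:54220521-54224206), the constant gene of the alpha chain, stood at 172, 249 and 325 CPM in ND non-EEC and at 14.8, 2.92 and 10.02 CPM in HFD non-EEC. The log2 fold change was -4.73 ± 0.95, with an adjusted p of 0.00744. In EEC Trac was at 107, 37.7 and 3.42 CPM under ND and at 0.770, 1.43 and 1.58 CPM under HFD. Within ND EEC replicate 3 lay nearer to the HFD EEC libraries than to the other ND EEC libraries. Divided by exon length, Trac averaged 265.9 ± 82.1 CPM per kb (SD, n = 3) in ND non-EEC, against 611 ± 301 for Trgc1.

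Cd8b1 (ENSMUSG00000053044, chr6:71322788-71337494) encodes the beta chain that conventional cytotoxic T cells pair with the alpha chain. It was at 69.0, 80.2 and 73.8 CPM in ND non-EEC, a group with an SD of 5.63 on a mean of 74.3, and at 3.98, 0.127 and 4.33 CPM in HFD non-EEC. In EEC the levels were 35.05, 8.84 and 1.31 CPM under ND and 0.385, 0.448 and 0.601 CPM under HFD. Cd8b1 fell under HFD in non-EEC, at a log2 fold change of -4.70 ± 1.06 (adjusted p = 0.0123). The EEC groups did not overlap, but replicate 1 of ND EEC was far above the other 2.

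Cd4 (ENSMUSG00000023274, chr6:124864692-124888221), the co-receptor of helper T cells that macrophages and dendritic cells can also carry, was the member with the least even pattern. It was at 25.7, 17.2 and 133 CPM in ND non-EEC, replicate 3 standing well above the others, and at 0.0602, 0.127 and 2.16 CPM in HFD non-EEC. Those HFD non-EEC levels rest on 1, 1 and 19 counts. Its EEC levels were 14.4, 3.73 and 1.27 CPM under ND and 0.641, 0.179 and 3.23 CPM under HFD, so that the diets overlapped. The log2 fold change in non-EEC was -6.30 ± 1.47 (adjusted p = 0.0147), and Cd4 was the member with the largest size and the largest adjusted p in that comparison. Without HFD non-EEC replicate 3, the library with most of the group's Cd4 counts, that value was -9.31.

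Cd5 and Cd6 encode related scavenger receptors that adjust signalling by the T cell receptor, and they are neighbours on chromosome 19, at chr19:10717116-10739002 (ENSMUSG00000024669) and chr19:10789341-10830058 (ENSMUSG00000024670). Cd5 was at 19.5, 27.5 and 98.9 CPM in ND non-EEC and at 0.120, 0.254 and 3.87 CPM in HFD non-EEC. In EEC Cd5 was at 2.44, 4.76 and 2.18 CPM under ND. HFD EEC replicate 1 had no count of either gene, which allows up to 0.192 CPM, and the other HFD EEC libraries were at 0.448 and 0.526 CPM of Cd5. Cd5 fell under HFD in non-EEC, at a log2 fold change of -5.14 ± 1.19 (adjusted p = 0.0137). Cd6 was at 30.1, 63.4 and 166 CPM in ND non-EEC and at 2.11, 1.40 and 5.35 CPM in HFD non-EEC. In EEC Cd6 was at 19.0, 13.1 and 3.08 CPM under ND and at 0.0896 and 0.977 CPM in HFD EEC replicates 2 and 3. Its log2 fold change in non-EEC was -4.88 ± 1.02 (adjusted p = 0.00921). In both genes ND non-EEC replicate 3 was the highest of all 12 libraries, and no diet groups overlapped.

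Cd8a (ENSMUSG00000053977, chr6:71373427-71379173), the alpha chain of CD8, had the highest CPM of the members. Its ND non-EEC libraries were at 973, 1592 and 2484 CPM and its HFD non-EEC libraries at 59.0, 10.3 and 99.5 CPM. The EEC libraries were at 306, 246 and 38.7 CPM under ND and at 3.33, 7.17 and 18.0 CPM under HFD. Every ND library lay above every HFD library of the same population, and ND EEC replicate 3 lay below HFD non-EEC replicates 1 and 3. In non-EEC the log2 fold change was -4.90 ± 0.97 (adjusted p = 0.00677).

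Itgae (ENSMUSG00000005947, chr11:73090583-73147446) encodes the alpha chain of CD103. It was at 789, 1275 and 1687 CPM in ND non-EEC and at 58.7, 9.64 and 56.5 CPM in HFD non-EEC. EEC libraries held 232, 222 and 25.9 CPM under ND and 2.31, 4.84 and 10.7 CPM under HFD. The order of the libraries was close to that of Cd8a: HFD non-EEC replicate 2 was the lowest of its group and ND EEC replicate 3 the lowest of its group. Itgae fell under HFD in non-EEC, at a log2 fold change of -4.91 ± 0.92 (adjusted p = 0.00536).

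Per kb of exon, ND non-EEC gave the order Trgc1 (611 ± 301, SD, n = 3), Cd8a (463 ± 209), Trgv2 (275 ± 114), Itgae (273 ± 98.1), Trac (266 ± 82.1), Cd8b1 (50.1 ± 3.79), Cd4 (14.6 ± 16.1), Cd6 (10.9 ± 8.89) and Cd5 (9.87 ± 8.87). From Trgc1 down to Trac each gene differed from the next by less than the larger of their SDs, as did Cd4, Cd6 and Cd5. The genes were read in the same libraries, so these SDs do not measure the order within a library. Trgc1 was above Cd8a in each ND non-EEC library, at 326, 580.5 and 925 against 268, 438 and 683 CPM per kb. Cd8a was above Trgv2, Itgae and Trac in each of them, while the order of Trgv2, Itgae and Trac changed between libraries. The steps from Trac to Cd8b1 and from Cd8b1 to Cd4 were larger than the SD of either gene.

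Across the genome 14.9% of the 17087 genes were called between diets in non-EEC and 9.15% were called lower under HFD. All 9 members were called lower there, with a median log2 fold change of -4.91 against -0.10 over all genes. The medians of the classes were -5.18 for the 2 gamma-delta genes, -4.88 for the 5 alpha-beta genes and -4.90 for the 2 shared genes. Groups did not overlap for 9 of 9, where 20.2% of all genes were lower under HFD without overlap. The low-count filter bears on these counts: 4 members, Trgv2, Cd8b1, Cd4 and Cd5, reached 10 counts in every library of a group only in the ND groups. Without ND non-EEC replicate 3 or without HFD non-EEC replicate 2 the number called was 7, Cd4 and Cd5 losing the call.

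**Figure D2:**
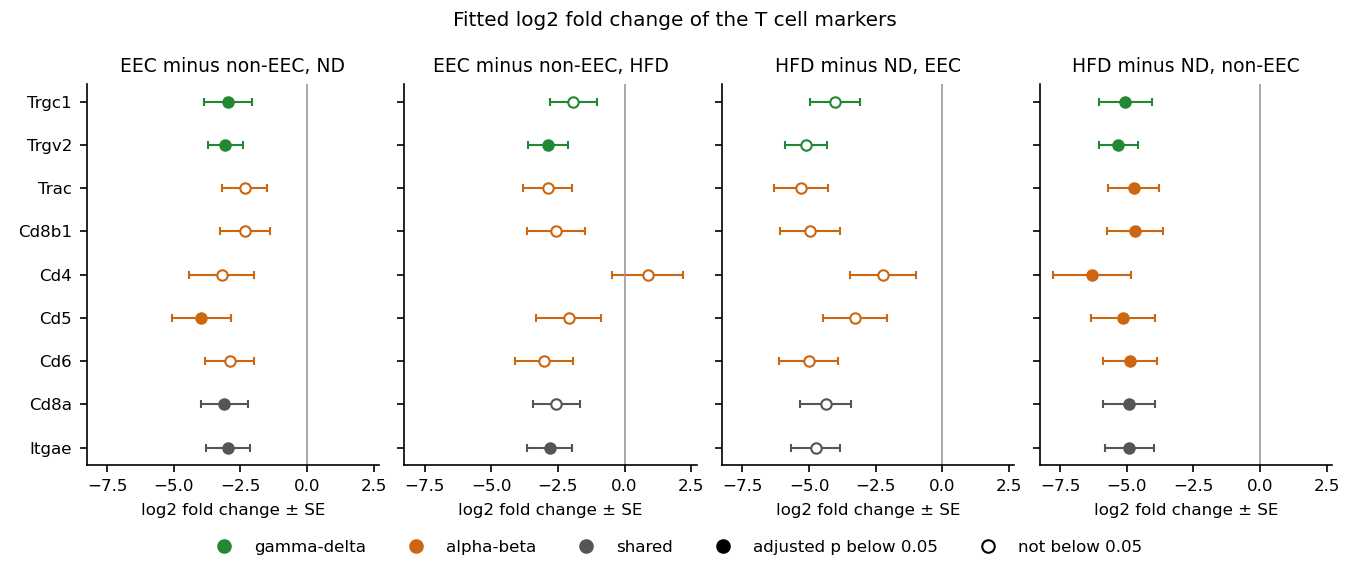
Fitted log2 fold change with SE of each marker in 4 comparisons; colours give the class, and filled points have an adjusted p below 0.05. All 9 points of the diet comparison in non-EEC are filled and lie between -4.70 and -6.30, while all 9 points of the diet comparison in EEC are open.

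In EEC the diet comparison had log2 fold changes from -5.29 ± 1.01 (Trac) to -2.22 ± 1.23 (Cd4), with a median of -4.75 against 0.00 over all genes. All 9 were negative, as were 49.7% of all genes. None of the 9 was called, and 0% of all genes were called by edgeR (0 of 17087). Adjusted p values ran from 0.0683 to 0.631, and 8 members had an unadjusted p below 0.05. The 8 without Cd4 did not overlap between the diets, where 6.59% of all genes were lower under HFD without overlap. The low-count filter bears on this count too. Among the 8, Trgv2, Cd8b1 and Cd5 reached 10 counts in every library of a group only in the ND groups. In HFD EEC they had 18, 19 and 12 counts in all. The outcome rested on 1 library more than on the others: without ND EEC replicate 3, the lowest of its group for all 9 members, 7 members and 1.22% of all genes were called. Without HFD non-EEC replicate 2 it was 5 members, and without ND non-EEC replicate 1 it was 3. DESeq2 called 7 of the 9 and 2.72% of all genes.

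The diet effect in EEC minus that in non-EEC ran from -0.56 ± 1.19 for Trac to 4.07 ± 1.79 for Cd4 on the log2 scale, and 0 of 9 members were called, as were 0.497% of all genes. Cd4 alone had an unadjusted p below 0.05, with an adjusted p of 0.278, and DESeq2 likewise called 0 of 9. The standard errors ran from 1.10 to 1.79. The median over all genes was 0.11 in this contrast.

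Between the sorted populations, 8 of 9 members were called lower in EEC over both diets, where 21.6% of all genes were called and 7.8% were called lower. Their median log2 fold change was -2.83 against -0.05 over all genes. Cd5 had the most negative value, -3.03 ± 0.81 (adjusted p = 0.0172), and Cd4, at -1.17 ± 0.90 (adjusted p = 0.391), was not called. The medians were -2.70 for gamma-delta, -2.61 for alpha-beta and -2.86 for shared genes. These comparisons use the same libraries as those between diets and are not separate evidence on any of the groups.

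Under ND all 9 were lower in EEC without overlap, against 16.7% of all genes. The test called 5 of them, Trgv2, Cd5, Itgae, Cd8a and Trgc1, where 12.8% of all genes were called and 4.9% were called lower. Trac, Cd8b1, Cd4 and Cd6 had log2 fold changes from -2.31 to -3.20 and adjusted p values from 0.0559 to 0.123. With the replicate block within diet 2 were called, Trgv2 and Cd5. Only 1 member was called without ND EEC replicate 2 or 3, or without ND non-EEC replicate 2 or 3.

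Under HFD 2 of 9, Trgv2 and Itgae, were called lower in EEC, where 14% of all genes were called and 3.77% were called lower. For Itgae the log2 fold change was -2.80 ± 0.84 (adjusted p = 0.0419). Of the 9, 3 did not overlap, against 14.9% of all genes. Cd4 had the opposite sign from the rest, 0.87 ± 1.34, and turned to -0.80 without HFD EEC replicate 3. With the replicate block within diet Trgv2 alone was called (adjusted p = 0.0395), and Itgae was not (adjusted p = 0.101). No member was called without HFD EEC replicate 1 or 2 or without HFD non-EEC replicate 3.

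Gamma-delta and alpha-beta transcripts were next compared within each library, as the share of Trgc1 among the counts of Trgc1 and Trac. The share was 63.7%, 68.3% and 72.4% in ND non-EEC and 58.1%, 52.1% and 73.1% in HFD non-EEC. The EEC values were 55.1%, 66.1% and 79.4% under ND and 68.4%, 66.7% and 85.0% under HFD. All 4 groups overlapped. The share in HFD non-EEC replicate 2 rests on 48 counts, with an exact (Clopper-Pearson) 95% interval from 37.2% to 66.7%, and that in HFD EEC replicate 1 on 38 counts, from 51.4% to 82.5%. Such intervals cover counting error only.

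The share depends on the genes taken for each lineage. All 4 gamma constant genes were also summed against Trac, so that it did not matter to which copy a counted read was assigned. Reads left uncounted because they matched several copies would still be missing, and whether any were is not stated. With this sum the share was 82.2% to 86.5% in ND non-EEC and 74.2% to 86.1% in HFD non-EEC. It was 78.3% to 92.3% in ND EEC and 74.5% to 89.9% in HFD EEC. Against Trbc1 and Trbc2, the constant genes of the beta chain, it was 77.3% to 78.3% in ND non-EEC, 70.1% to 81.6% in HFD non-EEC, 76.3% to 86.6% in ND EEC and 52.2% to 78.6% in HFD EEC. The lowest of these, HFD EEC replicate 1, rests on 67 counts (95% interval 39.7% to 64.6%). Both versions of the share were added after the data were seen, and the diet groups overlapped in both populations in each of them.

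**Figure D3:**
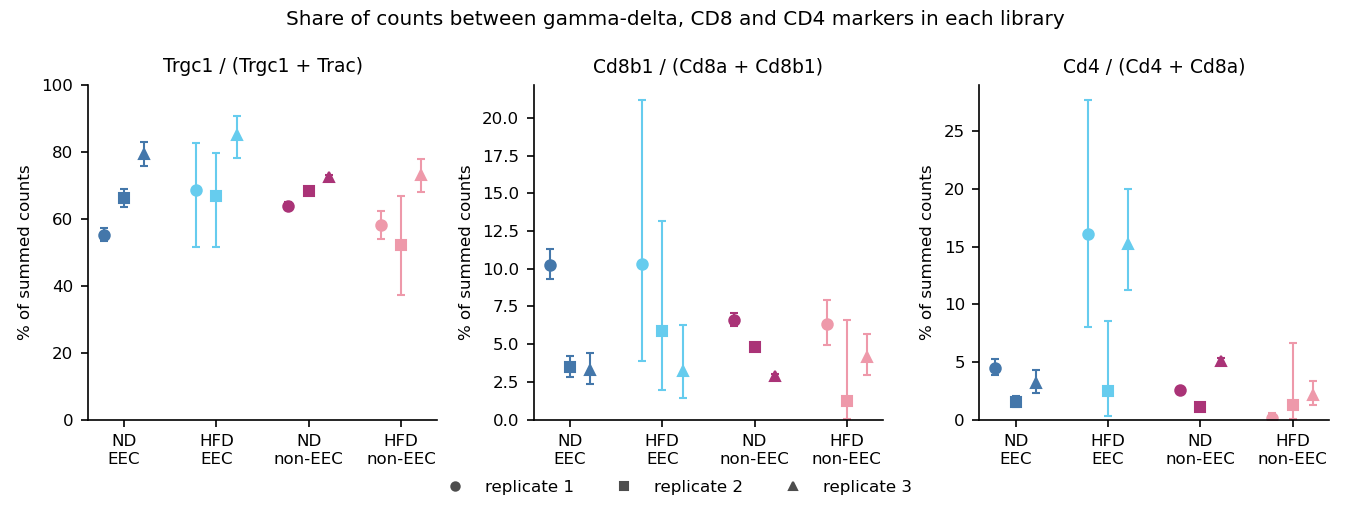
Share of Trgc1 among Trgc1 and Trac counts, of Cd8b1 among CD8 counts and of Cd4 among Cd4 and Cd8a counts, in percent, for each library with its exact 95% interval. The Trgc1 share runs from 52.1% to 85.0% over the 12 libraries, with all 4 groups overlapping, and 2 of 3 HFD EEC libraries have a Cd4 share above 15%.

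Cd8b1 made up a small part of the CD8 counts in every library, from 1.22% to 10.3%. It was 6.62%, 4.80% and 2.88% in ND non-EEC and 6.31%, 1.22% and 4.17% in HFD non-EEC. For EEC the share was 10.3%, 3.47% and 3.26% under ND and 10.3%, 5.88% and 3.24% under HFD. All 4 groups overlapped.

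The share of Cd4 among Cd4 and Cd8a counts was 16.1%, 2.44% and 15.3% in HFD EEC. In the other 9 libraries it ran from 0.102% in HFD non-EEC replicate 1 to 5.09% in ND non-EEC replicate 3. Myeloid markers were uneven in the same 3 libraries: Csf1r, the receptor of a macrophage growth factor, had 52, 2 and 101 counts and Lyz2, the lysozyme of macrophages, had 530, 11 and 1523 counts in HFD EEC replicates 1, 2 and 3. Cd68, also of macrophages, had 19, 49 and 59 counts there, so replicate 2 was not the lowest. Lyz2 was also high in ND EEC replicates 1 and 3, at 447 and 1256 counts, and Adgre1, another macrophage gene, had 0, 0 and 1 counts in HFD EEC. Over the list of 10 myeloid and mast cell genes the summed level ran from 29.3 to 144.9 CPM in HFD EEC and from 47.6 to 126 CPM in ND EEC. The part of these cells in the Cd4 level was not tested.

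The 4 genes of the CD3 complex (Cd3d, Cd3e, Cd3g and Cd247), which every T cell needs to signal through its receptor, give a measure of T cell RNA that no member enters. They summed to 1988, 3121 and 4036 CPM in ND non-EEC and to 121, 16.7 and 145.5 CPM in HFD non-EEC. In EEC the sums were 632, 507 and 79.3 CPM under ND and 7.31, 21.2 and 30.1 CPM under HFD. All 4 were called lower under HFD in non-EEC, from -4.64 for Cd3d to -5.24 for Cd247, where 9.15% of all genes were called lower. None of the 4 was called in EEC, where 0% of all genes were called.

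Set against the CD3 counts, libraries with very different CPM had close values for some members and not for others. Cd8a was at 48.4, 48.5 and 48.8 per 100 CD3 counts in ND EEC, although its CPM in those 3 libraries spanned 38.7 to 306. Over all 12 libraries Cd8a lay between 33.8 and 68.4, Itgae between 22.8 and 57.6 and Trgc1 between 13.5 and 29.7 per 100 CD3 counts. Trac lay between 4.31 and 17.4, with the highest values in ND EEC replicate 1 and HFD non-EEC replicate 2. Cd8b1 lay between 0.758 and 5.54, Cd6 between 0 and 8.33 and Cd5 between 0 and 2.74. Groups overlapped between diets in non-EEC for Cd8a, Itgae, Trgc1 and Trac.

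Trgv2 was at 1.75, 1.69 and 2.99 per 100 CD3 counts in HFD EEC and at 3.70, 3.57 and 8.62 in ND EEC, without overlap. In non-EEC it was at 3.96, 4.35 and 4.72 under ND and at 2.98, 6.06 and 3.76 under HFD, which overlapped. The HFD EEC values rest on 18 Trgv2 counts in all, and the difference was not tested. Cd4 was at 8.77 and 10.7 per 100 CD3 counts in HFD EEC replicates 1 and 3 and at 3.30 or less in the other 10 libraries.

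**Figure D4:**
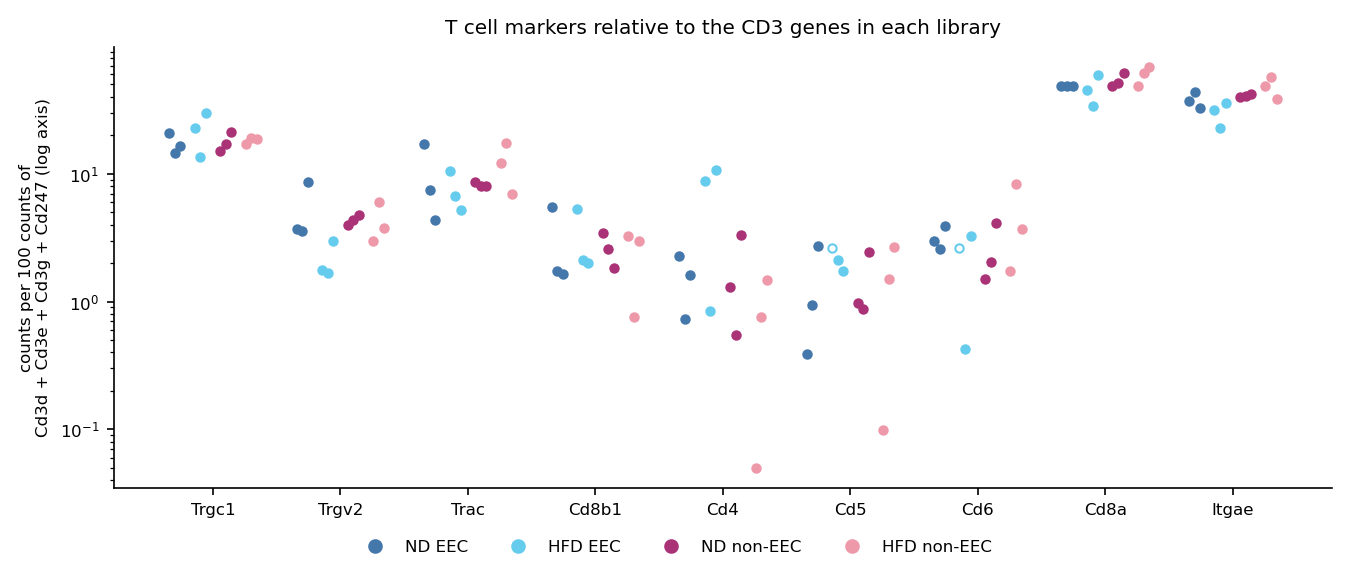
Counts of each marker per 100 counts of the 4 CD3 genes in each of the 12 libraries, on a log axis and coloured by group; open circles are libraries with 0 counts drawn at 3 counts. Cd8a stays between 33.8 and 68.4 in all libraries, while Cd4 spans 0.0497 to 10.7.

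The use of gamma variable segments was read from the counts of Trgv1 to Trgv7. Trgv7, the segment typical of gut intraepithelial gamma-delta cells, made up 62.4% ± 2.40 (SD, n = 3) of them in ND non-EEC, 68.2% ± 6.70 in HFD non-EEC, 54.6% ± 11.7 in ND EEC and 74.9% ± 11.2 in HFD EEC. Trgv2 made up 22.01% ± 0.47, 21.7% ± 7.58, 31.7% ± 11.9 and 10.1% ± 4.23 in the same order of groups. The Trgv2 share did not overlap between the diets in EEC, 23.9% to 45.4% under ND and 5.26% to 12.9% under HFD. In HFD EEC 31 to 98 counts of all gamma variable segments stood behind each share.

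Among the 4 gamma constant genes Trgc1 had 38.8% ± 2.08 of the counts in ND non-EEC, 38.8% ± 4.59 in HFD non-EEC and 33.1% ± 1.02 in ND EEC. In HFD EEC it had 62.6% ± 12.2, with a lowest library at 50% and 35 to 187 counts behind the shares. The highest share in any other library was 43.8%. Trgc2, the near copy, made up 26.3% ± 1.59 in HFD EEC and 39.2% ± 1.48 in ND non-EEC. How reads in shared sequence were counted was not tested.

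Segments of the delta chain were sparse. Trdj1, a joining segment, was at 23.1 ± 10.6 CPM (SD, n = 3) in ND non-EEC and at 0.36 ± 0.63 CPM in HFD non-EEC, and at 2.29 ± 2.35 and 0.14 ± 0.10 CPM in ND EEC and HFD EEC. Trdv1 and Trdv5, 2 variable segments, were called lower under HFD in non-EEC, where 9.15% of all genes were called lower. Their log2 fold changes were -5.55 ± 1.37 (adjusted p = 0.0185) and -6.00 ± 1.21 (adjusted p = 0.00756). Trdv5 was named after its values were seen. Trdv1 had 21 to 216 counts per library in ND non-EEC and 0 to 3 in HFD non-EEC. Trdv5 had 107 to 452 and 1 to 5 counts there. In HFD EEC they had at most 2 and 4 counts per library. Only ND libraries could therefore bring them through the low-count filter, which left little room for a call higher under HFD. Trdv5 overlaps the end of Trdc on the opposite strand, and with the strand setting not stated its reads and those of Trdc cannot be told apart.

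Other T cell receptor constant genes were lower under HFD in non-EEC too. There 4 of 5 were called lower, against 9.15% of all genes: Trgc2 (-5.05 ± 0.93), Trgc4 (-5.05 ± 1.06), Trbc1 (-4.96 ± 0.82) and Trbc2 (-4.87 ± 0.89). Trgc3, with a mean of 9.57 CPM in ND non-EEC, had -4.74 ± 1.55 and an adjusted p of 0.0557. The list's median was -4.95.

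Of 15 other genes linked to gamma-delta T cells, 9 had enough counts to be tested. Under HFD 7 were called lower in non-EEC, where 9.15% of all genes were called lower. Trdv1 and Trdv5, with the limit set by the low-count filter, are counted in these 7. Among the 7 were Trgv7 (-4.92 ± 0.89), Trgv4 (-5.25 ± 0.88) and Gpr18 (-4.47 ± 0.83), a receptor that intraepithelial T cells carry. The exception was Sox13, a transcription factor of gamma-delta T cell development, which was called higher at 2.09 ± 0.54 (adjusted p = 0.0217) and is named after its values were seen. Its level in EEC was 62.1 CPM under ND and 54.6 CPM under HFD, in libraries where Trgc1 averaged 72.8 and 4.49 CPM.

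Of 12 genes of conventional alpha-beta T cells, 5 were called lower under HFD in non-EEC, where 9.15% of all genes were called lower. The list median was -3.13. Themis, a signalling protein of T cell selection, was at -4.76 ± 0.75 (adjusted p = 0.00319) and Tcf7, a transcription factor of naive and memory T cells, at -2.76 ± 0.64 (adjusted p = 0.0145). Ctla4, an inhibitory receptor, was at -3.89 ± 1.30 (adjusted p = 0.0608) and Cd28, its activating counterpart, at -2.88 ± 1.30 (adjusted p = 0.151). In EEC the list summed to between 53.4 and 128.9 CPM under ND and to between 55.7 and 97.3 CPM under HFD, which overlap. Trac averaged 49.5 and 1.26 CPM in the same libraries, so the list's level did not follow Trac there. Whether the alpha-beta list and the gamma-delta list differed was not tested.

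Residency and homing genes of intraepithelial lymphocytes had negative values in 14 of 14 cases under HFD in non-EEC, at a list median of -3.78. Of the 14, 10 were called lower, where 9.15% of all genes were called lower. The 10 included Cd160 (-4.58 ± 0.67), Cd244a (-4.91 ± 0.89) and Ccr9 (-4.78 ± 0.74), the receptor of the gut chemokine CCL25. Ahr, the receptor for dietary and microbial ligands that these cells need to persist, was at -0.86 ± 0.55 (adjusted p = 0.321). Its mean was 79.8 CPM in ND non-EEC, 43.9 CPM in HFD non-EEC and 18.1 and 17.3 CPM in ND EEC and HFD EEC.

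Genes of the epithelial side of the contact had mostly positive values. Of 12 genes through which epithelial cells hold or instruct these lymphocytes, 2 were called higher under HFD in non-EEC and none lower, where 5.76% of all genes were called higher. The list median was 1.84 against -0.10 over all genes, and 3 of the 12 had a negative value, Il15ra at -0.24 among them. The 2 called were Btnl1 (2.37 ± 0.72, adjusted p = 0.0424) and Btnl4 (2.70 ± 0.70, adjusted p = 0.0223), butyrophilin-like proteins, of which Btnl1 is known to support the Trgv7 cells of the mouse gut; Btnl4 was named after its values were seen. Btnl1 was at 9.51 to 67.6 CPM in ND non-EEC and at 82.8 to 252 CPM in HFD non-EEC. Ccl25, the ligand of Ccr9, was at 1.76 ± 0.63 (adjusted p = 0.0757).

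Markers of other cells moved in the same comparison. Of the 9 enterocyte genes 6 were called higher under HFD in non-EEC, where 5.76% of all genes were called higher, with a median of 3.15, among them Fabp1 (3.78 ± 0.73), Fabp2 (3.49 ± 0.65), Alpi (3.15 ± 0.97) and Lct (3.20 ± 1.01). Of 10 general T cell and leukocyte genes all 10 were called lower, Ptprc, Thy1, Lck and Cd7 among them, at a median of -4.83. Natural killer and innate lymphoid genes were called lower in 6 of 11 cases, B and plasma cell genes in 2 of 9 and myeloid and mast cell genes in 2 of 10, where 9.15% of all genes were called lower. B and plasma cell genes summed to between 944 and 1699 CPM in ND non-EEC and to between 11.9 and 156 CPM in HFD non-EEC. Stroma and blood vessel genes had 0 of 5 called and summed to between 44.8 and 199 CPM under ND and to between 17.3 and 35.2 CPM under HFD. The part of a different cell make-up of the sorted fraction in the T cell values was not tested, and within these libraries it and diet cannot be told apart.

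In EEC no list had a called gene between diets, since no gene was called. The enterocyte list summed to between 8299 and 13220 CPM in ND EEC and to between 8258 and 18060 CPM in HFD EEC, which overlap, while the member lists did not. Leukocyte genes summed to between 148 and 868 CPM in ND EEC and to between 14.6 and 53.1 CPM in HFD EEC.

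Among genes that are no members, the log2 level of Trgc1 over the 12 libraries was most like that of Gzma (Pearson r = 0.995), a granule protease of cytotoxic lymphocytes, followed by Cd3g, Gpr18, Arhgdib and Nkg7 (r from 0.993 to 0.995). Trac, ranked the same way, was most like Cd96 (r = 0.992), then Apol7e, Il2rg, Gpr65 and Stat4 (r from 0.985 to 0.988). Among the members r with Trgc1 was 0.996 for Cd8a, 0.992 for Itgae, 0.984 for Trgv2, 0.977 for Trac, 0.976 for Cd8b1, 0.971 for Cd6, 0.918 for Cd5 and 0.88 for Cd4. The libraries fall into 4 groups that differ in level, so r mostly describes the difference between groups.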

How the data were processed

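The authors deposited 1 table of raw read counts per gene for 12 RNA-seq libraries. Per the labels' protocols, cDNA was amplified with the Ovation RNA-Seq System V2. Per the submitters' processing notes, reads were handled with HTSeq 0.5.4p3, Bowtie2 2.1.0, TopHat2 2.0.10 and CASAVA 1.8.2 on mm10. Annotation release, strand setting and handling of shared reads: not given in the sources used here. Names came from GENCODE vM21 for 37607 of 39086 identifiers (96.2%); gamma genes were matched through RefSeq synonyms.

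Counts were filtered with filterByExpr, scaled by TMM and fitted with 4 group means in edgeR 4.0.16 (R 4.3.3, limma 3.58.1), with quasi-likelihood tests and Benjamini-Hochberg adjustment over 17087 genes at 0.05. SE is the absolute log2 fold change divided by the square root of F. DESeq2 1.42.0, limma-voom, RLE scaling, other filters, replicate blocks, fits of 6 libraries and leaving out each library were alternatives. The fitting code was tested on simulated data. Same-numbered EEC and non-EEC libraries had correlated deviations under HFD (0.28, 0.262 and 0.281) and in 2 of 3 pairs under ND (0.146, 0.233 and -0.015), a hint of pairing. With 3 mice given per diet and 3 libraries per group, each mouse may have given both populations, but no label ties a number to a mouse. Members and lists were chosen with earlier results of these data known. Named genes are all members, all CD3 and other receptor constant genes, up to 4 genes of each other list with the smallest adjusted p between populations over both diets, and the 5 most like Trac and Trgc1 (log2 CPM, prior count 2), the latter in place of Trdc. Nothing says that the libraries of a group are separate cultures or extractions beyond 3 mice per diet, so p-values measure the spread between these libraries.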

Additional observations from a re-analysis of the deposited data

How the results depend on the processing

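The number of members called lower under HFD in non-EEC (9 of 9) was 9 under every other tool, scaling, filter and block, and 7 to 9 with 1 library left out. For HFD against ND in EEC (0 of 9) it was 7 with DESeq2, 7 with no filter on low counts and 0 to 7 with 1 library left out, and 0 under the other alternatives. For EEC against non-EEC under ND (5 of 9) it was 9 with limma-voom, 8 with no filter, 7 with DESeq2, 2 with only the 6 libraries compared and 1 to 6 with 1 library left out. Under HFD (2 of 9) it was 6 with DESeq2, 5 with no filter, 3 with limma-voom and 0 to 4 with 1 library left out. Over both diets (8 of 9) it was 6 to 8 with 1 library left out, and for the difference of diet effects it was 0 throughout. The replicate block gave 2 of 9 under ND, 1 of 9 under HFD and 8 of 9 over both diets, and the replicate block within diet gave the same numbers, 2, 1 and 8. All 3 correlations of same-numbered HFD pairs were above 0.1 and each HFD library correlated best with its own number, while 1 ND pair was not above 0.1. With 1 library left out the log2 fold change spanned 0 for Cd4 over both diets (-2.02 to 0.34), Cd4 under HFD (-0.80 to 3.88) and Cd5 under HFD (-2.74 to 0.84). It also spanned 0 in the difference of diet effects, where no member was called: Trgv2 -0.73 to 0.70, Trac -1.16 to 0.74, Cd8b1 -0.85 to 1.36, Cd6 -3.05 to 0.59, Cd8a -0.31 to 1.22 and Itgae -0.56 to 0.55. There limma-voom gave 1.13 for Trac and 2.05 for Cd8b1, the replicate block 0.34 for Cd8b1, and the replicate block within diet 0.43 for Trac and 1.05 for Cd8b1. Of 1041 alternative values of single members, 901 kept sign and side of the threshold, 55 lost the call, 57 gained it and 28 turned sign. The cause was not tested. Low counts limit the HFD groups: Cd5, Cd6, Cd8b1 and Trgv2 rest on 12 to 19 counts over the 3 HFD EEC libraries, and Cd4 on 21 over the 3 HFD non-EEC libraries.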
